A study of Danio rerio with 6 samples.

Results

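Erythroid cells were 144 of the 650 wells kept from the 2 plates of zebrafish pituitary cells taken at 37 days post fertilization (dpf), and of 1390 wells kept over all 6 plates of the study. They were chosen by their globin transcripts. A well was kept when it held at least 400 unique molecular identifiers (UMIs, each standing for 1 captured transcript), and it was called erythroid when hbba1, hbba2, hbaa1, hbaa2 and the row named "HBZ (1 of many)" together made up at least 2% of its UMIs. Plate 1 held 66 erythroid wells of 311 (21.2%, 95% Clopper-Pearson interval 16.8% to 26.2%) and plate 2 held 78 of 339 (23.0%, 18.6% to 27.9%). The other 506 kept wells, 245 on plate 1 and 261 on plate 2, are the wells they are set against.

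The study sorted pituitary cells, enriched for those of the posterior lobe (the neurohypophysis), and sequenced each well on its own by MARS-seq, which tags and counts UMIs in plates. All fish were of the AB strain with Tg(pomca:EGFP), a transgene in which pomca sequences drive green fluorescent protein. The juveniles at 37 dpf received 5 µl of the fluorescent dipeptide β-Ala-Lys-Nε-AMCA at 4.6 mM, and 5 pituitaries were pooled before propidium iodide staining and sorting into 384-well plates. Adult males at 5 and 7 months, with 2 plates each, received 10 µl of it. The erythroid wells and the wells they are set against therefore share strain, transgene, dipeptide, pool and plate. No gate is given in the labels, and nothing says that the 2 plates came from separate fish, so differences between plates may be technical.

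Red blood cells of fish keep their nucleus, and they mature from dividing precursors that switch on globin, heme and membrane genes under Gata1 and Klf1. Heme is built by a chain of enzymes that begins with Alas2 in the red cell line, and iron for it enters through the transferrin receptor. In mammals, maturing red cells fill with hemoglobin while the nucleolus, where ribosomes are assembled, shrinks and division ends.

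The erythroid wells were deeper than the other wells. They held 415942 and 568340 UMIs, 42.0% and 48.7% of the UMIs of kept wells on plates 1 and 2. The median erythroid well had 5632 and 6928.5 UMIs, against 1345 and 1385 in other wells. Erythroid wells had a median of 1315 and 1538 detected genes and other wells 562 and 571. That difference went with depth: thinned to 200 non-globin UMIs a well, erythroid wells had 142.5 and 137.5 genes and other wells 141 and 138. The median share of the mitochondrial rows with names starting mt- was 4.86% and 4.23% in erythroid wells and 5.09% and 4.18% in other wells. Rows named AC024175 were not counted in that share. They made up 11.1% and 15.7% of non-globin UMIs in erythroid wells and 11.7% and 15.8% in other wells.

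**Figure D1:**
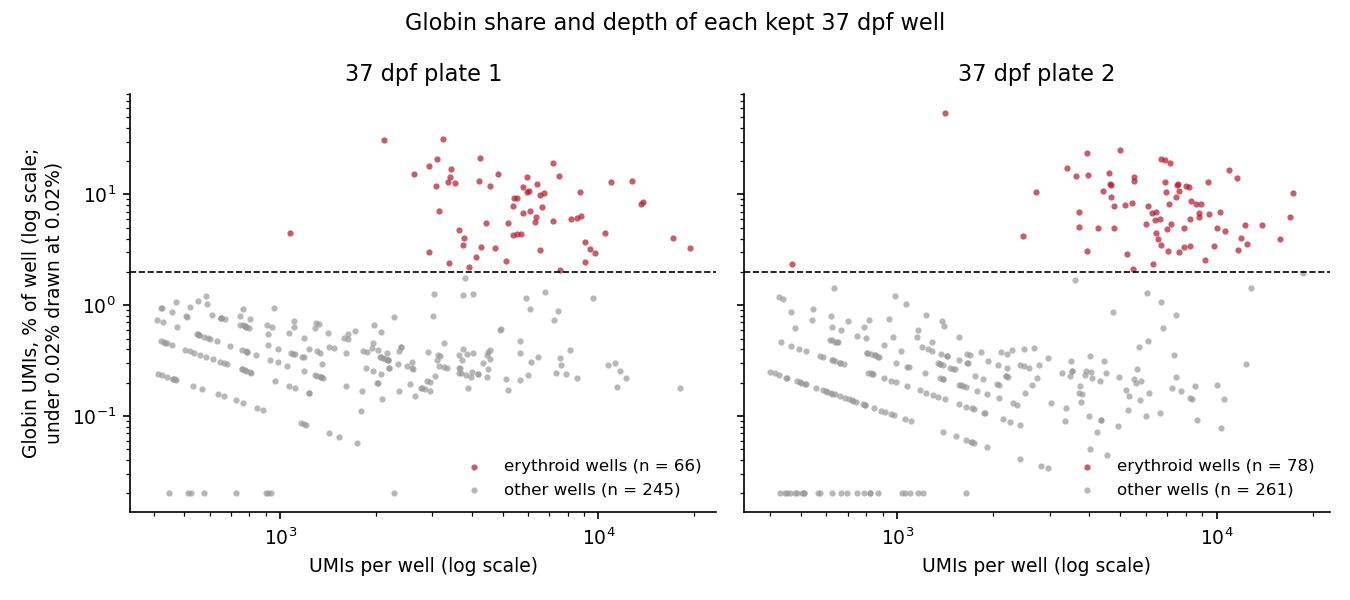
Share of globin UMIs in each kept 37 dpf well against its total UMIs, both on log scales, by plate, with erythroid wells in red and other wells in grey; the dashed line is the cut at 2%. Erythroid wells sit mostly at the deep end of each plate, with median shares of 7.09% and 6.88%, and wells on both sides come close to the line.

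Because globin share chose the wells, its values are a description. In erythroid wells it had a median of 7.09% on plate 1 and 6.88% on plate 2, and it ran to 31.6% and 54.9%. It was 10% or more in 25 and 27 wells and 20% or more in 4 and 5. Just inside the cut, 7 and 5 wells lay between 2% and 3%, and just outside it 11 and 10 kept wells lay between 1% and 2%, so the cut falls in a continuous range. The median of the other wells was 0.338% and 0.219%. Wells under 400 UMIs carried 0.838% and 0.488% when pooled. On the adult plates no kept well met the rule. With 0 of 257 and 174 wells at 5 months and 0 of 203 and 106 at 7 months, taking 3 wells of each total as the limit of a count of 0, shares of up to 1.17%, 1.72%, 1.48% and 2.83% remain allowed, and the 4 plates held 1 globin UMI in kept wells.

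The globin transcripts came mostly from hbba1, hbaa1 and "HBZ (1 of many)". Of the globin UMIs in erythroid wells, hbba1, an adult β-globin, gave 37.3% and 41.5%, "HBZ (1 of many)", named for an α-type globin and of a stage that no file gives, gave 41.6% and 40.7%, and hbaa1, an adult α-globin, gave 19.0% and 16.1%. The near-identical copies hbba2 and hbaa2 gave 0.691% and 0.617%, and 1.43% and 1.07%. Reads of such copies cannot be assigned with certainty, so the split within each pair is uncertain. The 10 rows listed as embryonic and larval globins, without "HBZ (1 of many)", together had 44 and 92 UMIs in erythroid wells. Of these, hbbe1.1 had 18 and 44, hbz had 20 and 32, and hbae3, hbbe1.2, hbbe1.3 and hbbe2 were at 0 on both plates.

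Red cell markers outside the globin sum went with the label. A UMI of slc4a1a, the band 3 anion exchanger of the red cell membrane, was present in 97.0% and 97.4% of erythroid wells, against 39.2% and 27.6% of other wells. The carbonic anhydrase gene cahz was seen in 95.5% and 97.4% of erythroid wells and in 23.7% and 21.1% of other wells. For alas2, the first enzyme of heme synthesis in red cells, the shares were 65.2% and 75.6% in erythroid wells and 5.31% and 3.07% in other wells. The other wells were shallower, by the medians above, and free RNA can give UMIs in them. One erythroid well on plate 2 had no UMI of the 3 genes.

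Levels below are UMIs per 1000000 non-globin UMIs (CPM), summed over the wells of a group on each plate, and folds are ratios of CPM plus 10. Since the globin rule also set this contrast, its folds are given without p-values. Genes needed at least 20 UMIs on each plate over both groups, so a gene could pass this filter by 1 group alone. Among the 3898 genes that passed, 420 (10.8%) differed at least 4-fold the same way on both plates. Of these, 19 (0.487%) were higher in erythroid wells and 401 (10.3%) were lower. At 2-fold, 178 (4.57%) were higher and 708 (18.2%) lower, and the median log2 fold of all genes was 0.22. Under trimmed-mean (TMM) scaling that median was 0.11. Without plate 1 the 4-fold counts were 33 higher and 626 lower, and without plate 2 they were 29 and 520, since a call then needs 1 plate. More genes were lower than higher in erythroid wells in each of these counts past a fold cut. With no fold cut, 1941 genes lay above 0 on both plates and 1273 below.

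Heme synthesis led the genes that were higher. Of its 13 genes past the filter, 11 were higher at 2-fold on both plates, against 4.57% of all genes, and 0 were lower. Their median log2 fold was 1.94, against 0.22 over all genes. Together the list's 20 genes made up 0.285% and 0.349% of non-globin UMIs in erythroid wells, against 0.0651% and 0.0639% in other wells. alas2 stood at 327 and 316 CPM in erythroid wells and at 29.7 and 23.5 CPM in other wells, which is 8.49-fold and 9.74-fold higher. The genes of later steps followed. cpox, coproporphyrinogen oxidase, had 460.4 and 588 CPM in erythroid wells and 55.9 and 73.8 CPM in other wells (7.14-fold on both plates). hmbsa, hydroxymethylbilane synthase, had 340.1 and 496 CPM in erythroid wells, against 33.2 and 73.8 CPM in other wells. ppox, the oxidase before the last step, passed the 4-fold cut at 4.06-fold and 5.80-fold. fech, which puts iron into the ring, was higher at 2-fold only, with 154 and 209 CPM in erythroid wells and 55.9 and 52.0 CPM in other wells. tspo, a porphyrin-binding protein of the outer mitochondrial membrane, was listed under terminal maturation and not under heme synthesis. It had 649 and 765 CPM in erythroid wells and 121 and 141 CPM in other wells.

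The membrane and its skeleton followed, with 8 of 13 genes past the filter higher at 2-fold and 2 lower. Of all genes, 4.57% were higher and 18.2% lower. slc4a1a reached 2286 and 2293 CPM in erythroid wells, against 510 and 503 CPM in other wells (4.42-fold and 4.49-fold). sptb, the β-spectrin of the skeleton, had 144 and 176 CPM in erythroid wells and 20.9 and 18.5 CPM in other wells. epb41b, a protein 4.1 that ties spectrin to actin, had 173 and 293 CPM in erythroid wells and 31.4 and 55.4 CPM in other wells. rhag, the Rh-associated glycoprotein, fell short of 2-fold, at 366 and 337 CPM in erythroid wells and 187 and 186 CPM in other wells.

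Among red cell enzymes and redox genes, 3 of 18 were higher and 5 lower at 2-fold, where 4.57% of all genes were higher and 18.2% lower. cahz had the largest smaller-plate fold of any gene outside the globins, with 1792 and 1961 CPM in erythroid wells and 180 and 181 CPM in other wells (9.49-fold and 10.3-fold). prdx2, a peroxiredoxin abundant in red cells, had 2632 and 2726 CPM in erythroid wells, against 1107 and 884 CPM in other wells. gpx1a, a glutathione peroxidase, had 952 and 993 CPM in erythroid wells and 346 and 356 CPM in other wells. sod1 did not reach 2-fold (327 and 328 CPM in erythroid wells, 255 and 196 CPM in other wells).

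Of the genes that handle iron, 5 of 13 were higher and 2 lower at 2-fold, against 4.57% and 18.2% of all genes. The ferritin heavy chain fth1a had 4466 and 4447 CPM in erythroid wells and 2160 and 1736 CPM in other wells. The transferrin receptor tfr1a had 75.9 and 111 CPM in erythroid wells, against 8.73 and 26.8 CPM in other wells, while its paralog tfr1b had 65.4 and 88.2 CPM in erythroid wells and 108 and 92.3 CPM in other wells. The iron transporter slc11a2 stood at 254 and 247 CPM in erythroid wells and 78.6 and 67.1 CPM in other wells. slc25a37, the mitochondrial iron importer of red cells, had 1 UMI on each plate in erythroid wells, a depth at which no level can be read.

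Of 12 erythroid transcription factor genes past the filter, 5 were higher and 3 lower at 2-fold, where 4.57% of all genes were higher and 18.2% lower. gata1a had 233 and 240 CPM in erythroid wells and 64.6 and 53.7 CPM in other wells. klf1 had 94.2 and 117 CPM in erythroid wells, against 19.2 and 23.5 CPM in other wells, and lay just outside the 4-fold cut with a smaller fold of 3.57. tal1, a partner of Gata1, stood at 238 and 263 CPM in erythroid wells and 92.5 and 72.1 CPM in other wells. myb, a factor of blood precursors, had 586 and 684 CPM in erythroid wells and 276 and 300.2 CPM in other wells. Of 9 genes of erythropoietin and stem cell factor signalling past the filter, 1 was higher and 6 were lower at 2-fold, beside the same all-gene shares. The one higher was the receptor gene epor, with 131 and 197 CPM in erythroid wells and 40.2 and 40.3 CPM in other wells. The stem cell factor receptor kita was at 0 in erythroid wells, with 1 and 3 UMIs in other wells, and the factor runx1 was at 0 in both.

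Outside these lists, si:ch211-103n10.5, a row without a descriptive name, was 8.35-fold and 12.5-fold higher, with 2114 and 2333 CPM in erythroid wells and 245 and 178 CPM in other wells. The row dre-mir-451 had 144 and 134 CPM in erythroid wells, against 19.2 and 10.1 CPM in other wells. dre-mir-144 passed at 6.67-fold and 4.22-fold. Both carry the names of microRNA genes linked to red cells. The counts are of polyadenylated RNA assigned to those rows, not of mature microRNAs, and no strand is stated. The calcium pump gene atp2b1a, the lipoxygenase gene alox5b.3, the gasdermin gene dfna5b, the N-myristoyltransferase gene nmt1b and si:ch211-207c6.2 complete the 15 highest, with smaller-plate folds of 5.63, 6.29, 5.62, 4.73 and 4.91. On plate 1 alox5b.3 was seen in 19.7% of erythroid wells, with 37 UMIs, and 1 well held 27.0% of them. Just inside the cut were si:dkey-25o16.2 at 4.03-fold and ppox at 4.06-fold, and just outside it were rhd, an Rh protein gene, at 3.97-fold and zmp:0000001081 at 3.81-fold.

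**Figure D2:**
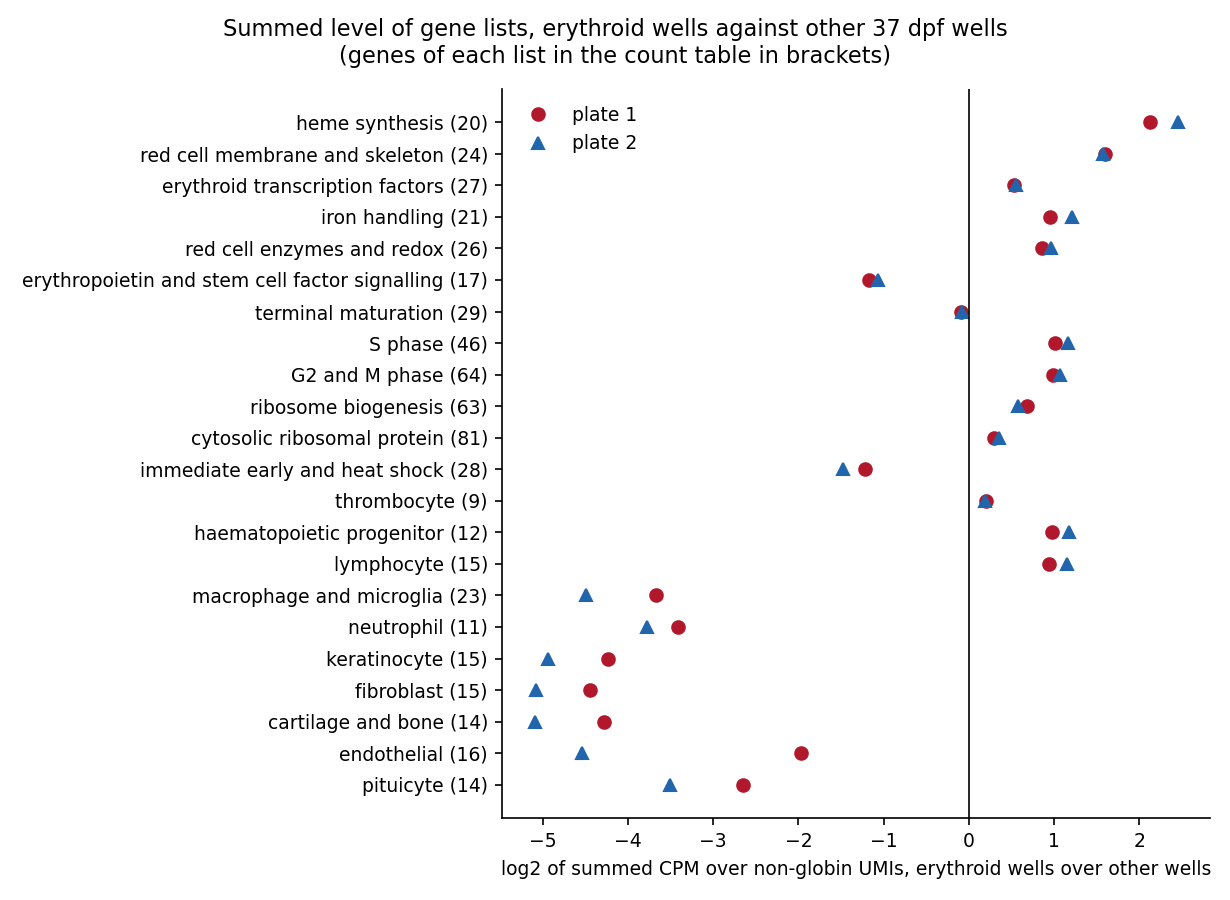
Log2 ratio of each list's summed CPM in erythroid wells over that in other 37 dpf wells, with circles for plate 1 and triangles for plate 2. Heme and membrane lists lie farthest to the right, and the haematopoietic progenitor and lymphocyte lists also lie right of 0. The lists of macrophages and microglia, neutrophils, keratinocytes, fibroblasts, and cartilage and bone lie far to the left, those of endothelial cells and pituicytes left of 0, and the thrombocyte and terminal maturation lists near 0.

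Collagen and keratin genes were among the 10 lowest in erythroid wells, which were col1a1a, col2a1a, tmsb1, sparc, cyt1, col1a2, col1a1b, krt5, krt97 and rbp4. Against 18.2% of all genes lower at 2-fold, 10 of 10 fibroblast genes, 7 of 7 cartilage and bone genes, 11 of 11 keratinocyte genes and 14 of 14 macrophage and microglia genes past the filter were lower. So were 4 of 4 endothelial, 2 of 2 neutrophil and 1 of 1 neuron genes and 5 of 6 pituicyte genes, where slc1a3a lay above 0 on plate 1 and below 0 on plate 2. The endothelial list had 33 and 6 UMIs in erythroid wells and 194 and 160 in other wells. The neutrophil list had 7 and 8 against 112 and 125, and the neuron list 1 and 7 against 28 and 56. Genes that pass the filter by the other wells tend to be lower through the filter itself, so these counts describe the wells and test nothing. Lists of some other blood cells were not lower. The summed haematopoietic progenitor list stood at 971 and 1091 CPM in erythroid wells and 494 and 483 CPM in other wells, and its 3 genes past the filter, myb, tal1 and lmo2, are also in the list of erythroid transcription factors. The lymphocyte list stood at 47.1 and 59.4 CPM in erythroid wells, against 24.4 and 26.8 CPM in other wells, and ikzf1 was its 1 gene past the filter. The thrombocyte list stood at 136.0 and 136.1 CPM in erythroid wells and 118.7 and 119.1 CPM in other wells. col1a1a, a type I collagen chain, had 175 and 74.8 CPM in erythroid wells and 4390 and 2642 CPM in other wells. krt5, a keratin, had 379 and 197 CPM in erythroid wells, against 7156 and 6833 CPM in other wells. The summed keratinocyte list stood at 654 and 357 CPM in erythroid wells, where 1 well on each plate carried over 1% of non-globin UMIs from any list of another cell type. The shares were 1.297% endothelial on plate 1 and 3.49% cartilage and bone on plate 2. Among defining markers of other blood cells, mpeg1.1, a macrophage gene, had 1 UMI on each plate in erythroid wells, against 14 and 29 UMIs in other wells. spi1b, a myeloid factor, had 2 and 1 UMIs in erythroid wells and 20 and 38 in other wells. rag1, of lymphocyte receptor rearrangement, had 0 and 2 UMIs in erythroid wells and 1 and 5 in other wells, and csf1rb had 0 and 1 in erythroid wells and 0 and 2 in other wells. mpx, lyz, itga2b, mpl, cd79a, gh1 and prl were at 0 in erythroid and other wells alike, so they do not separate them. gp1bb, a platelet and thrombocyte membrane gene, was higher (115 and 119 CPM in erythroid wells, 26.2 and 30.2 CPM in other wells). The part of free RNA or of joined cells in any of these values was not tested.

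Transcripts of the early stress response were also low in erythroid wells. Of 22 immediate early and heat shock genes past the filter, 21 were lower at 2-fold, against 18.2% of all genes, and 0 were higher. fosab, a Fos transcription factor, had 160 and 92.0 CPM in erythroid wells and 1900 and 2142 CPM in other wells (11.3-fold and 21.1-fold lower). egr1, another immediate early factor, had 96.8 and 76.7 CPM in erythroid wells and 1203 and 1397 CPM in other wells. btg2, an antiproliferative gene, had 188 and 134 CPM in erythroid wells, against 1020 and 1255 CPM in other wells. hspa8, a chaperone made in most cells, was the exception, at 4123 and 3993 CPM in erythroid wells and 3153 and 3306 CPM in other wells. Ribosomal protein genes gave 0 of 80 in either direction at 2-fold, although their sum was 32.8% and 30.3% of non-globin UMIs in erythroid wells and 26.7% and 23.8% in other wells.

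Some wells below the cut carried red cell transcripts other than globin. After the values were seen, other wells with at least 3 UMIs of slc4a1a, alas2 and cahz that made up at least 0.1% of non-globin UMIs were counted, giving 24 and 23 wells. They were nearly as deep as erythroid wells, with median UMIs of 4563 and 5801, but a minimum of 3 UMIs itself favours deep wells. Their median globin share was 0.435% and 0.247%, close to that of the remaining other wells (0.323% and 0.219%). slc4a1a, one of the genes they were chosen by, stood at 1495 and 1353 CPM in them. Of genes that did not choose them, gata1a had 161 and 154 CPM there, against 39.6 and 16.1 CPM in the remaining other wells. myb had 498 and 750 CPM there and 218 and 131 CPM in the remaining other wells. fosab was low there as in erythroid wells, at 203 and 111 CPM, against 2342 and 2904 CPM in the remaining other wells. Without these wells among the others, 44 genes rather than 19 were 4-fold higher in erythroid wells, the 19 included.

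Levels of red cell genes in the other wells also differed from gene to gene. In this paragraph they are shares of all UMIs, globins included, and not of non-globin UMIs. hbaa1 in other wells was 3.04% and 3.39% of its level in erythroid wells, and hbba1 was 6.10% and 4.26%. The same ratio was 10.9% and 10.0% for cahz and 24.2% and 23.8% for slc4a1a. The ratios thus differed several-fold between genes. The part of free RNA in them was not tested. On plate 2, where well positions were listed, other wells beside an erythroid well had a median of 0.216% globin and those not beside one 0.226%.

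Maturation within the erythroid wells was described by globin share. On each plate the wells were ordered by that share and split into 3 sets of equal size. The globin-rich and globin-poor sets, of 22 wells each on plate 1 and 26 on plate 2, were compared over non-globin transcripts. The globin-rich wells began at 10.8% and 10.5% and the globin-poor wells ended at 4.51% and 5.08%. Globin-rich wells were shallower, with medians of 3502 and 5048 non-globin UMIs, against 5217 and 6747 in globin-poor wells. Of 1129 genes tested, 57 (5.05%) differed at least 2-fold the same way on both plates, 23 (2.04%) higher in globin-rich wells and 34 (3.01%) lower. Without plate 1, 100 were higher and 170 lower, and without plate 2, 85 and 126.

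cahz, alas2, aqp1a.1 and prdx1 were among the 10 highest genes in the globin-rich wells. cahz had 4050.3 and 4353 CPM in globin-rich wells, against 721 and 756 CPM in globin-poor wells (5.55-fold and 5.70-fold), with the middle wells between, at 1393 and 1469 CPM. alas2 had 677 and 666 CPM in globin-rich wells and 177 and 118 CPM in globin-poor wells. All 10 heme genes past the filter lay above 0 on both plates and 3 reached 2-fold, and the median log2 fold of the list was 0.78 against -0.05 over all genes. aqp1a.1, a water channel of the red cell membrane, had 190 and 274 CPM in globin-rich wells and 40.8 and 75.1 CPM in globin-poor wells. prdx1, a peroxiredoxin, had 222 and 215 CPM in globin-rich wells, against 47.6 and 32.2 CPM in globin-poor wells. Of the other red cell lists, 3 of 8 membrane, 2 of 9 enzyme and redox and 1 of 6 iron genes past the filter were higher at 2-fold, against 2.04% of all genes, and 0 were lower. Of 5 terminal maturation genes past the filter, 0 passed 2-fold on both plates in either direction, with a median log2 fold of 0.37. That list holds genes of autophagy and ubiquitin tagging and some others, such as tspo. tspo had 804 and 1266 CPM in globin-rich wells and 524 and 558 CPM in globin-poor wells. The row si:dkey-16p21.8 had the highest smaller-plate fold, 6.23-fold and 6.91-fold.

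Other names among the 10 highest were si:ch211-103n10.5, at 4991 and 5197 CPM in globin-rich wells and 912 and 858 CPM in globin-poor wells, and zmp:0000001081. They also held dre-mir-144, the phosphate transporter gene slc20a1a and CR383676.1. A single well held 44.3% of the UMIs of CR383676.1 over erythroid wells of plate 1, and 31.2% of those of zmp:0000001081. slc4a1a did not reach 2-fold, with 3056 and 3191 CPM in globin-rich wells and 1782 and 1801 CPM in globin-poor wells. gata1a had 391 and 311 CPM in globin-rich wells, against 136 and 198 CPM in globin-poor wells, and passed 2-fold on plate 1 only. myb had 582 and 599.7 CPM in globin-rich wells and 489.8 and 831 CPM in globin-poor wells, higher on one plate and lower on the other.

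Genes of ribosome assembly were lower in the globin-rich wells. A list of 63 such genes was added after their values had been seen, so its counts describe these wells and test nothing. Of its 38 genes past the filter, 16 were lower at 2-fold, against 3.01% of all genes, and 0 were higher. On both plates 34 of the 38 lay below 0, and the median log2 fold was -1.15. The 63 genes summed to 0.632% and 0.508% of non-globin UMIs in globin-rich wells and 1.26% and 1.32% in globin-poor wells. nolc1, a nucleolar phosphoprotein, had 21.2 and 14.8 CPM in globin-rich wells, against 225 and 166 CPM in globin-poor wells (7.53-fold and 7.10-fold lower). npm1a, nucleophosmin, had 592 and 548 CPM in globin-rich wells, 1272 and 1290 CPM in middle wells and 1701 and 1710.1 CPM in globin-poor wells. The ribosome assembly genes ppan, pes, mdn1, bms1 and UTP14C were also among the 10 lowest. Of the remaining 3, ahcy, which clears S-adenosylhomocysteine, had 159 and 88.8 CPM in globin-rich wells and 578 and 397 CPM in globin-poor wells, and ppa1b encodes a pyrophosphatase. Ribosomal protein genes, by contrast, gave 0 of 79 in either direction, with a median log2 fold of 0.09.

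**Figure D3:**
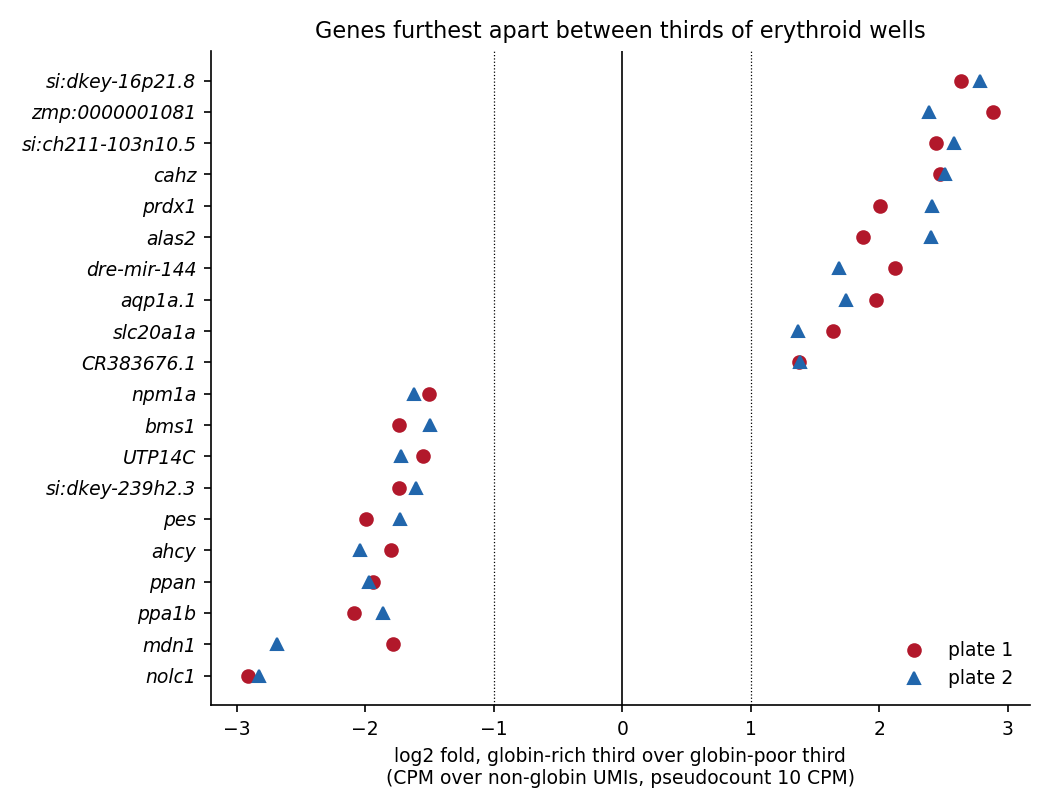
Log2 fold between the globin-rich and globin-poor erythroid wells for the 10 highest and 10 lowest genes, with circles for plate 1 and triangles for plate 2, and dotted lines at 2-fold. Both plates lie on the same side of 0 for every gene drawn, which the rule for choosing them required.

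Depth moved with globin share. Across the 66 and 78 erythroid wells, Spearman's rho between globin share and the number of non-globin UMIs was -0.30 and -0.32, and the part of depth in the values above was not tested. Held to wells with 3000 to 8000 non-globin UMIs, 8 genes of 560 were higher in globin-rich wells and 11 lower, and 7 of each were among those above. The wells of a plate share a library and a pool of fish. The balance of globins differed as well: "HBZ (1 of many)" gave 39.2% and 38.2% of globin UMIs in globin-rich wells, against 45.3% and 45.9% in globin-poor wells. That row is part of the sum that chose and ordered the wells. Without it 116 wells rather than 144 met the rule, and the part of this choice in the difference was not tested.

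**Figure D4:**
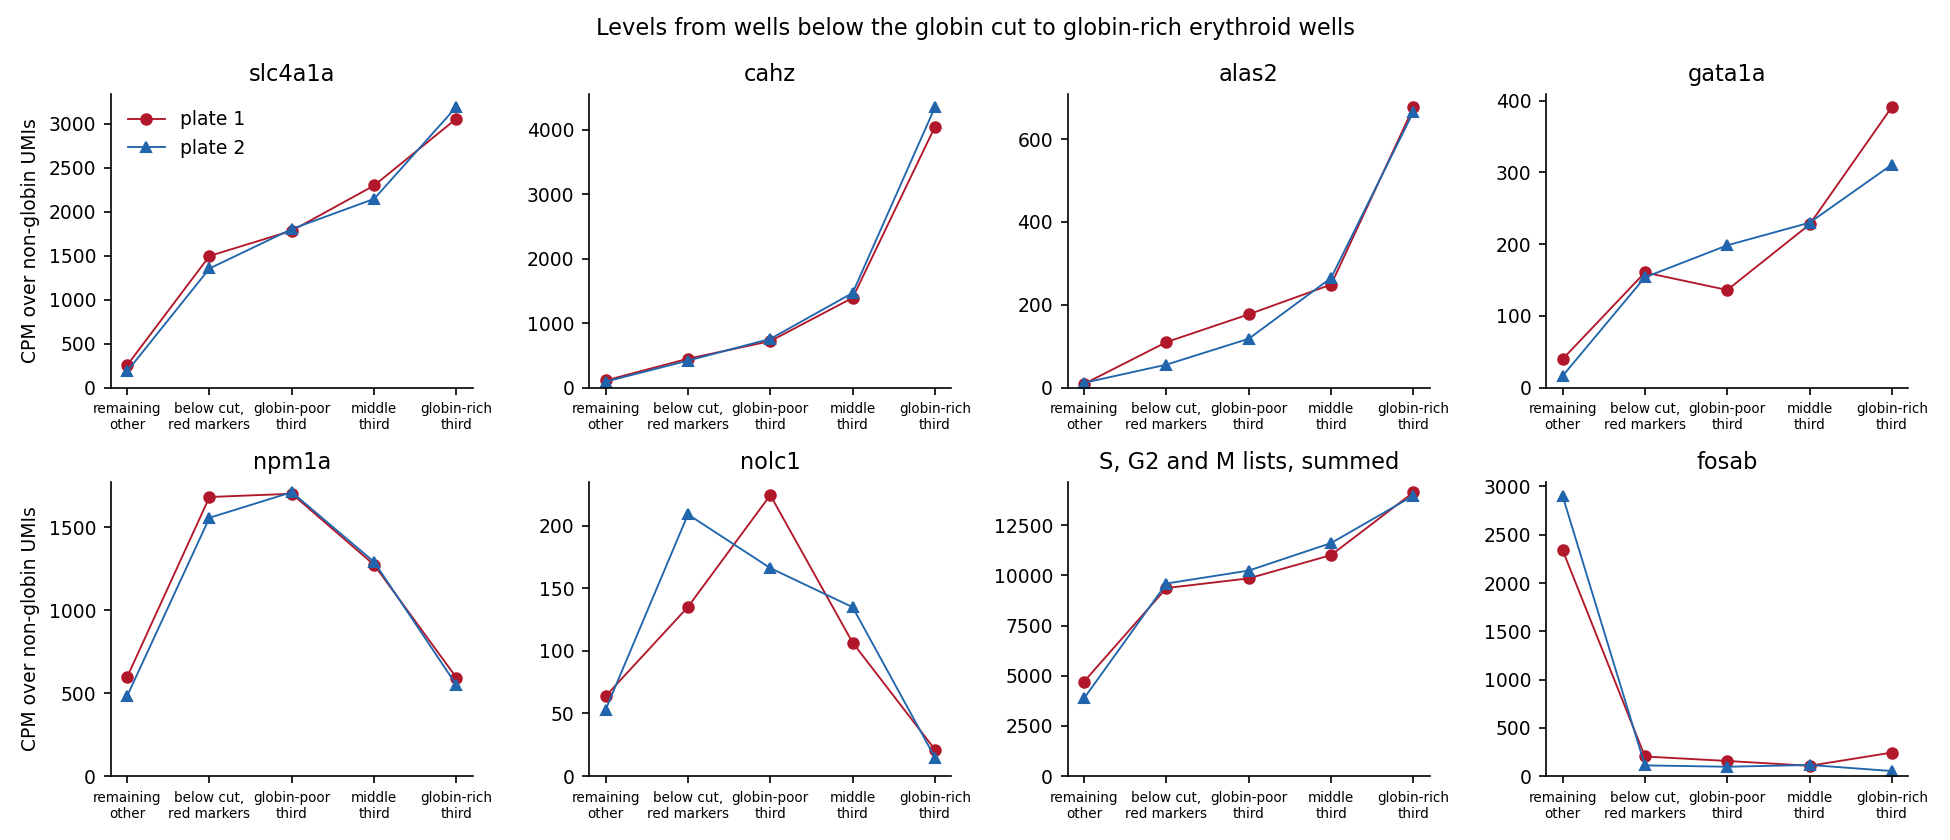
CPM over non-globin UMIs of selected genes, and of the S, G2 and M lists summed, in 5 sets of wells, with circles for plate 1 and triangles for plate 2. From left to right they are the remaining other wells, those below the cut with red cell markers, and the globin-poor, middle and globin-rich erythroid wells. The second set was chosen by slc4a1a, alas2 and cahz, so the rise of these genes from the first set to the second follows from that choice. cahz and alas2 climb to the right, npm1a is highest in the globin-poor wells on both plates and low in the globin-rich wells, and fosab is high in the remaining other wells.

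By rank correlation across erythroid wells, the 5 genes whose levels were most like alas2, of 371 with at least 100 UMIs on each plate, were cahz (rho 0.41 and 0.53), blvrb, a biliverdin reductase (0.36 and 0.38), si:ch211-103n10.5 (0.43 and 0.36), tubb2b, a β-tubulin (0.31 and 0.33), and cpox (0.30 and 0.36). With a median of 1 and 2 alas2 UMIs a well, these are weak relations in sparse counts.

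Division transcripts were higher in erythroid wells than in other wells. Of the S phase list and the G2 and M list, 11 of 36 and 15 of 48 genes past the filter were higher at 2-fold and 0 were lower, where 4.57% of all genes were higher and 18.2% lower. The other wells were not alike in this. Those below the cut with red cell markers had 9368 and 9594 CPM of the 2 lists summed, near the 9850 and 10239 CPM of globin-poor erythroid wells. The remaining other wells had 4710 and 3877 CPM. pcna, the replication clamp, had 1057 and 863 CPM in erythroid wells, against 555 and 414 CPM in other wells. mcm4, a subunit of the replicative helicase, had 267 and 232 CPM in erythroid wells and 92.5 and 75.5 CPM in other wells. ccnb1, the mitotic cyclin, had 194 and 163 CPM in erythroid wells and 41.9 and 68.8 CPM in other wells. mki67, a proliferation marker, had 317 and 644 CPM in erythroid wells, against 201 and 240 CPM in other wells, and reached 2-fold on plate 2 only. ccnd1, a cyclin of the G1 phase outside these lists, had 293 and 272 CPM in erythroid wells and 80.3 and 90.6 CPM in other wells. Its own list, cell cycle regulators, mixes cyclins with genes that hold division back, such as btg2, whose lower level in erythroid wells is given above. The list's direction is therefore no measure of division. Of 11 genes past the filter, ccnd1 was the 1 higher at 2-fold and 5 were lower. That list summed to 1266 and 1139 CPM in erythroid wells, against 2216 and 2771 CPM in other wells.

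The lists together were a median 1.09% and 1.11% of non-globin UMIs in erythroid wells, from 0.137% and 0.157% up to 2.04% and 2.12%. At full depth no erythroid well was without them. In other wells the median was 0.209% and 0.164%. Wells with at least 3 list UMIs that made up at least 1% were 38 of 66 erythroid wells on plate 1 (57.6%, Clopper-Pearson 44.8% to 69.7%) and 50 of 78 on plate 2 (64.1%, 52.4% to 74.7%). Among other wells they were 30 of 245 (12.2%) and 29 of 261 (11.1%). After thinning every well to 200 non-globin UMIs, the order was the same: 65.2% and 62.8% of erythroid wells and 19.6% and 16.9% of other wells kept at least 2 list UMIs. At that depth 11 of 66 and 10 of 78 erythroid wells had 0 list UMIs, as had 144 of 245 and 163 of 261 other wells. The cut at 1% marks a range and not a type: 26 and 40 erythroid wells lay between 0.8% and 1.2%.

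**Figure D5:**
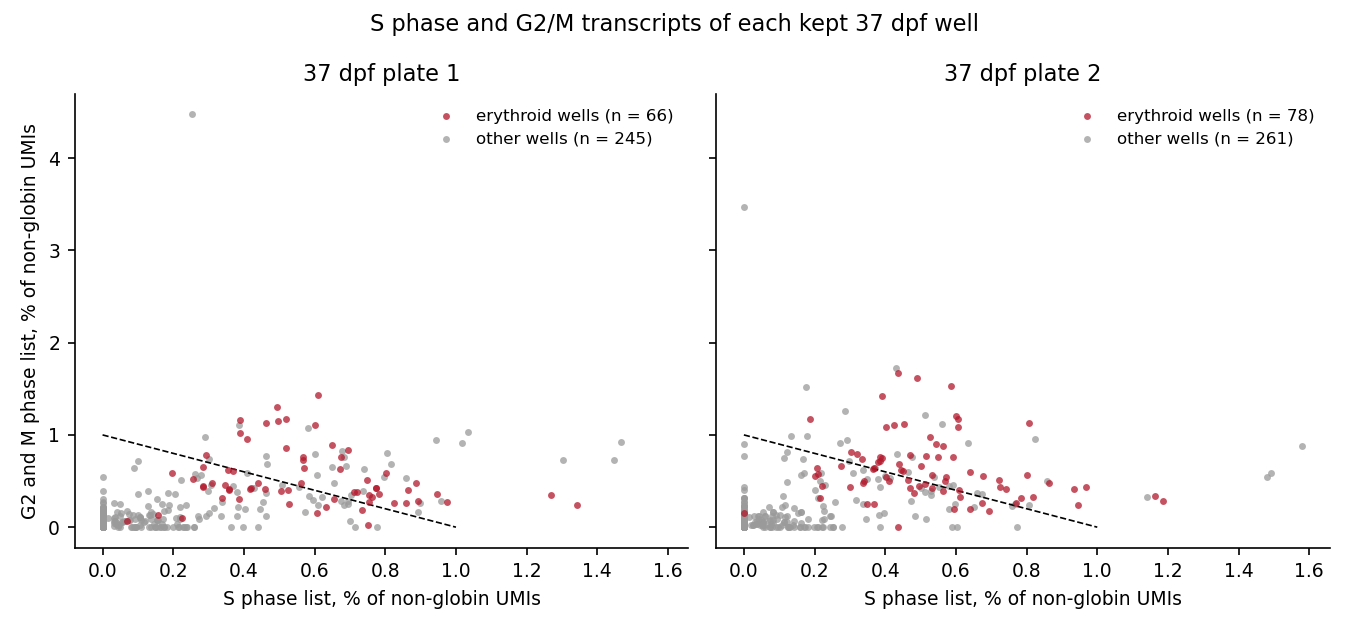
G2 and M list against S phase list in each kept 37 dpf well, as percent of non-globin UMIs, by plate, with erythroid wells in red and other wells in grey; the dashed line marks a sum of 1%. Erythroid wells scatter around the line, from wells rich in S transcripts to wells rich in G2 and M transcripts, while most other wells lie near 0.

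The lists varied between erythroid wells by more than counting gives. Thinned to 1000 non-globin UMIs, the G2 and M list without hmgb2a and hmgb2b had a variance over erythroid wells of 2.97 and 3.06 times its mean, where counting alone gives about 1. The S phase list had 2.05 and 1.43 times its mean. cahz had 5.29 and 2.65 times, at a mean of 2.33 and 2.30 UMIs. The ribosomal protein list had 6.47 and 4.25 times, at a mean of 334 and 306 UMIs, against 4.59 and 4.80 UMIs for that G2 and M list. At an equal relative spread this ratio grows with the mean, so it does not rank lists of unlike means. The keratinocyte list had 1.01 and 1.09 times, at a mean of 0.697 and 0.289 UMIs, too few to show much spread.

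Globin-rich wells as a set did not have fewer division transcripts. The S phase list was 0.649% and 0.580% of non-globin UMIs in globin-rich wells and 0.502% and 0.473% in globin-poor wells. The G2 and M list was 0.765% and 0.817% in globin-rich wells, against 0.483% and 0.551% in globin-poor wells. Division wells had a median globin share of 9.73% and 9.44%, and the other erythroid wells 4.62% and 5.03%. Across erythroid wells rho between globin share and the summed lists was 0.46 and 0.48. The lowest summed share on each plate, 0.137% and 0.157%, lay in wells of 30.8% and 54.9% globin with 1465 and 637 non-globin UMIs. The well of 31.6% globin on plate 1 had 1.80%. Among the genes of the lists, cdk1, the mitotic kinase, and rrm2, which makes deoxynucleotides, were each 2-fold higher in globin-rich wells on both plates. They were 1 of 20 genes of the G2 and M list and 1 of 23 of the S phase list past the filter, near the 2.04% of all genes, and 0 were lower.

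Few genes outside the lists went with division. Of 1702 tested between division wells and the other erythroid wells, 16 (0.94%) differed at least 2-fold the same way on both plates, 12 (0.705%) higher and 4 (0.235%) lower. Without plate 1, 130 were higher and 59 lower, and without plate 2, 121 and 66. kpna2, an importin, had 351 and 427 CPM in division wells and 109 and 101 CPM in the other erythroid wells. cahz had 2395 and 2599 CPM in division wells, against 902 and 819.7 CPM in the other erythroid wells. aspm, a spindle pole gene, had 117 and 145 CPM in division wells and 40.7 and 67.4 CPM in the other erythroid wells. The 9 others higher were CR383676.1, commd8, zmp:0000001081, ankhb, atox1, fkbp2, mrps33, alad and ppp2r1bb. On plate 1 a single well held 44.3% of the UMIs of CR383676.1 and 31.2% of those of zmp:0000001081. Like cahz, both were also among the 10 highest in globin-rich wells. Division wells were richer in globin, so division and globin share cannot be told apart for these genes. Lower were AL954715.1, aatf, pfn2l and the chemokine gene cxcl12a, for which 1 well held 70.7% and 90% of its UMIs over erythroid wells. For aatf 1 well held 34.8% of them on plate 1.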

How the data were processed

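Single cells were sequenced by MARS-seq from 6 plates. The authors deposited a table of UMI counts per gene and well for each plate, which the count checks found to be whole numbers. The submitters' processing notes name danRer10, bcl2fastq 2.15.0.4 and Seurat 3.1.5, with no role, and the aligner is not given in the sources used here. From the counts, 92 spike-in rows were left out and wells under 400 UMIs dropped. No doublet caller was run and no wells were removed for mixed markers. Counts were summed per plate and group, scaled to CPM over non-globin UMIs, and compared with a pseudocount of 10 CPM and at least 20 UMIs per gene and plate. No test was run, since globin share or, for division wells, the division lists set each contrast. Nothing shows the plates to come from separate fish. Intervals cover counting error only (Clopper-Pearson). Genes named were the markers, the 15 highest and 10 lowest called against other wells, the 10 highest and lowest otherwise, and the 4 most counted of each list; further genes were named for their role after their values were seen. Members and gene lists were chosen with earlier results of these data known, and the ribosome assembly list after its values were seen. The summed comparison was tested on simulated data. Alternatives included TMM factors from edgeR 4.0.16 in R 4.3.3. Python 3.11.15, numpy 2.4.6, pandas 2.3.3 and scipy 1.17.1 were used.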

Additional observations from a re-analysis of the deposited data

How the results depend on the processing

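Erythroid wells were 22.2% of kept wells, 19.6% with a minimum of 200 UMIs, 31.5% with 1000 UMIs, 25.4% and 8% with globin cuts of 1% and 10%, and 17.8% without "HBZ (1 of many)". Wells on a single plate gave 21.2% to 23.0%. Genes higher than in other wells numbered 19 (401 lower). They were 15 with CPM over all UMIs (415 lower) and with TMM scaling (431 lower), 17 with a minimum of 1000 UMIs (320 lower), 21 with a globin cut of 1%, 31 with a pseudocount of 1 CPM, 54 as a mean over wells, 44 without other wells that carried red cell markers and 30 without other wells of 0.5% to 2% globin, the last 2 chosen after seeing the data. With a globin cut of 10%, 6 were higher and 227 lower. A call needs only 1 plate when the other is left out, so counts then rose to 29 to 33 higher and 520 to 626 lower (33 and 626 without 37_dpf replicate 1).

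Between globin-rich and globin-poor wells, halving the wells gave 12 higher and 13 lower, a globin cut of 10% gave 2 and 3, and wells of 3000 to 8000 non-globin UMIs gave 8 and 11 (chosen after seeing the data). Thinning to 200 UMIs left 101 genes and 0 calls in either direction. Single plates gave 85 to 100 higher and 126 to 170 lower. Ordering wells by total UMIs, deepest against shallowest, gave 16 higher and 3 lower, sharing 1 and 0 with those called, and turned the sign of these log2 folds: si:dkey-16p21.8 -0.96, cahz -1.01, si:ch211-103n10.5 -1.24, zmp:0000001081 -0.011, prdx1 -0.075, alas2 -0.84, aqp1a.1 -1.23, dre-mir-144 -0.69, nolc1 1.06, ppan 0.71, ahcy 0.41, mdn1 1.13, UTP14C 0.77, npm1a 0.54, bms1 0.84, ncl 0.80 and nop58 0.87. Deep wells were poorer in globin, and the cause was not tested.

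Division wells were 61.1% of erythroid wells and 11.7% of other wells. A list share of 0.5% gave 96.5% and 27.3%, one of 2% gave 2.78% and 1.98%, the G2 and M list alone gave 13.9% and 1.98%, and the lists without hmgb2a and hmgb2b (chosen after seeing the data) gave 43.1% and 7.11%. Thinning to 200 UMIs, in another random draw than the one above, left at least 2 list UMIs in 61.8% of erythroid wells and 19.96% of other wells. Single plates gave 57.6% to 64.1% and 11.1% to 12.2%. With the G2 and M list alone, 11 genes were higher in division wells and 33 lower, sharing 3 and 3 with those called, and CR383676.1 (-0.59) and mrps33 (-0.15) changed sign. Without hmgb2a and hmgb2b, 8 genes were higher and 1 lower, and single plates gave 121 to 130 higher and 59 to 66 lower. Under shares of 0.5% and 2% a group had under 5 wells on a plate, and no genes were compared. Every comparison set wells against wells of the same plate, so plates are already matched, and no paired fit was made since no test was run. Depth limits genes of few UMIs, such as alas2 within single wells.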

Other observations

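slc15a2, a dipeptide transporter gene, had 6 and 8 UMIs in erythroid wells, in 5 of 66 and 8 of 78 wells, against 11 and 10 UMIs in other wells, in 9 of 245 and 9 of 261. Per 1000000 non-globin UMIs that was 15.7 and 15.3 in erythroid wells and 19.2 and 16.8 in other wells. The gene was named after its values were seen, because the fish had received a fluorescent dipeptide.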
